A study of Drosophila melanogaster with 10 samples.

Results

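The genes described here are 7 genes of nucleolar ribosome production in Drosophila melanogaster, out of 15259 genes in the count table. They were picked by name, although with earlier results of these data known: Fib, nop5, Nop56, Nop60B, Nopp140, Nnp-1 and Polr1B. All 7 had counts in every library and passed the filter on low counts in every comparison. Total RNA came from flight muscle of pharate animals 96 h after puparium formation and from the notum of wing discs of wandering larvae of the third instar, which holds the precursors of that muscle beside disc epithelium. In each tissue, animals labelled Rbf-KD were set against animals labelled WT, which asks how knockdown of Rbf, the fly retinoblastoma-family protein, alters the transcriptome before and after the muscle has formed. Animals labelled Rbf-KD carried UAS-Dicer2.D, Mef2-Gal4 and the hairpin UAS-Rbf-RNAi[GD:10696]. Animals labelled WT carried UAS-Dicer2.D, Mef2-Gal4 and UAS-mCherry-RNAi at attP2, a hairpin against a protein that flies lack. All animals were kept at 25 °C and all carried the Mef2 driver, which is active in the muscle lineage and not in the disc epithelium of the same piece, as well as Dicer2, which strengthens RNA interference. The hairpins came from different stocks, so a genotype difference also holds any other difference of those stocks. Flight muscle had 2 libraries of each genotype and notum 3 of each, 10 in all, and no label says whether they came from separate animals, so the p-values measure a spread between libraries that may be technical.

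Ribosomes are built in the nucleolus. RNA polymerase I transcribes the ribosomal DNA there, small nucleolar ribonucleoproteins (snoRNPs) then modify and cut the transcript, and assembly factors turn it into subunits. Box C/D snoRNPs carry fibrillarin, the methyltransferase, together with the core proteins Nop56 and Nop5 (Nop58 in other organisms), and box H/ACA snoRNPs carry dyskerin, the pseudouridine synthase, which in flies is Nop60B. In flies the transcription factor Myc is a known activator of these genes, and dividing, growing cells such as those of the larval disc use them heavily.

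Gene counts summed to between 53864590 and 73408335 per flight muscle library and between 42097050 and 55401980 per notum library. Counts of the targeted gene went against the label in flight muscle. The libraries labelled Rbf-KD held 1210 and 1454 Rbf counts, against 187 and 203 in WT (log2 fold change 1.48, SE 0.17, adjusted p = 0.00229 in edgeR's quasi-likelihood test). In notum those labelled Rbf-KD had 4025, 4081 and 4336 Rbf counts and WT had 4346, 5179 and 4643 (-0.25, SE 0.18, adjusted p = 1.00). Only animals labelled Rbf-KD carried the hairpin against Rbf, and the part of hairpin reads in the Rbf counts was not tested. Every direction given for the genotypes below is therefore a direction between labelled libraries. Levels are given as CPM, a gene's count divided by the total of its library and multiplied by 1e6. The markers of the labelled tissues were present: 7 flight muscle markers, led by Mhc and Act88F, summed to between 79236 and 158179 CPM in flight muscle and between 143 and 244 CPM in notum. In notum the 6 markers of adult muscle precursors, led by vg and htl, summed to between 358.0 and 524 CPM and the 6 markers of disc epithelium, led by shg and ap, to between 2403 and 2993 CPM.

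As CPM of the library total, the whole set was scarce in WT flight muscle and abundant in notum, and flight muscle labelled Rbf-KD lay between. Summed over the 7 genes, the libraries held 264.5 and 303.1 CPM in flight muscle labelled Rbf-KD and 15.03 and 20.8 CPM in WT flight muscle. In notum the sums were 1418, 1325 and 1379 CPM in libraries labelled Rbf-KD and 1520, 1419 and 1373 CPM in WT. The flight muscle groups were thus far apart, and the notum groups overlapped. In WT flight muscle the single genes rested on 51 to 289 counts per library, where counting error alone is 14.0% to 5.88%, against 1213 to 4291 counts in flight muscle labelled Rbf-KD (2.87% to 1.53%) and 3541 to 22117 counts in WT notum (1.68% to 0.672%). These percentages cover counting error only and leave out the spread between libraries. The intervals given for folds below come instead from the edgeR fit.

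**Figure D1:**
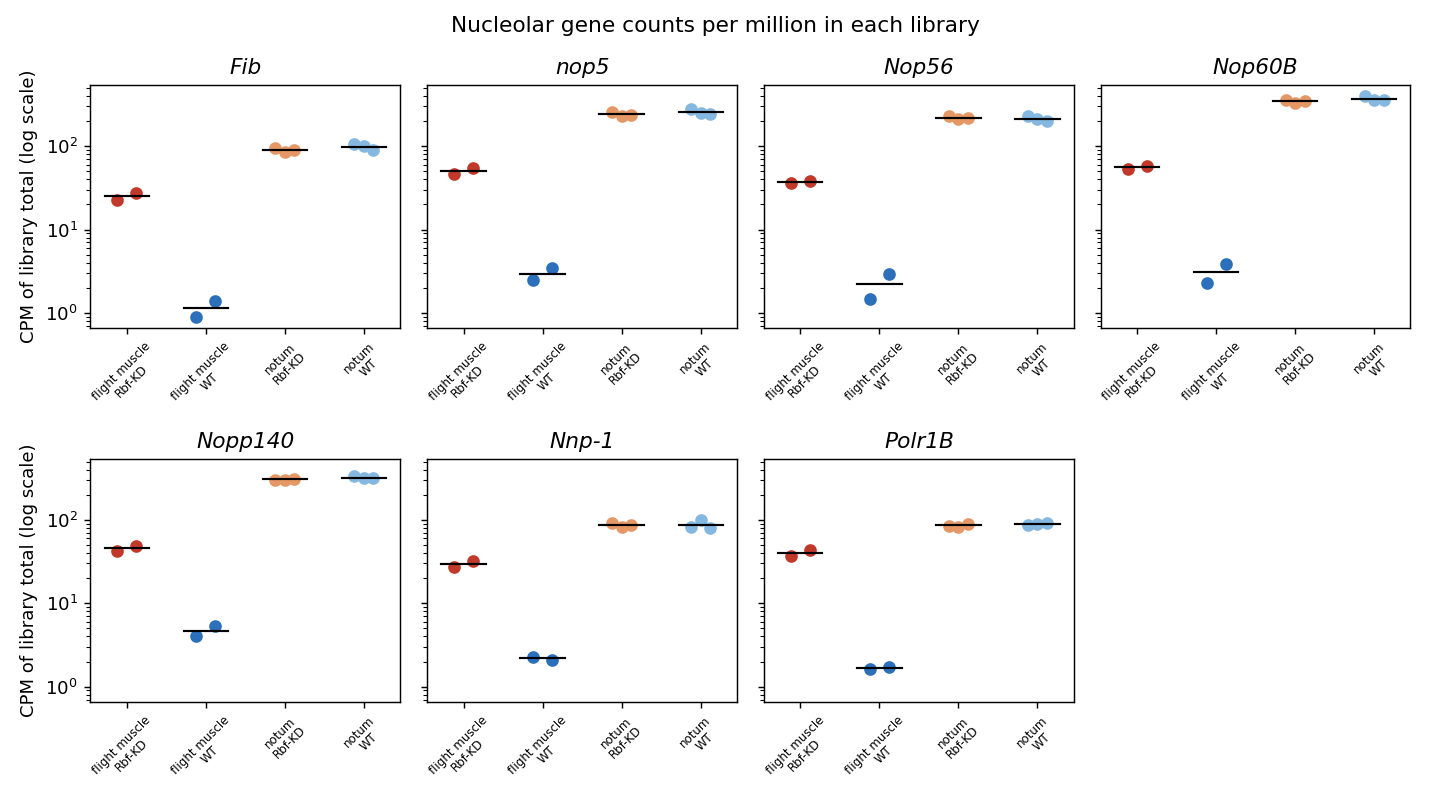
CPM of the library total (log axis) for each of the 7 genes, with a point for each library and a bar for the group mean (n = 2 for flight muscle, n = 3 for notum). In every panel the libraries of flight muscle labelled Rbf-KD lie above those of WT flight muscle and below those of notum, and the notum genotypes overlap in 6 panels and stand close together without overlap for Nopp140.

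The question in flight muscle was how the libraries labelled Rbf-KD differed from WT once the muscle was formed. All 7 genes were called higher in flight muscle labelled Rbf-KD, by 4.49- to 11.1-fold. None overlapped between the genotypes, but the share of all genes without overlap was not counted. With 2 libraries against 2, an exact permutation test allows no two-sided p below 0.333. Of the 10930 genes tested there, 39.8% were called at an adjusted p under 0.05, 19.4% higher and 20.3% lower, so a count of 7 of 7 lies far from the share over all genes. The median log2 fold change of the 7 was 2.99, against 0.10 over all genes tested. These folds are on the scale of TMM, which sets most genes level between libraries. Scaled to the library totals, the ratios of the group means were 9.69- to 23.9-fold, the median log2 fold change of all genes was 1.204, a shift of 1.11, and 7449 genes were called higher and 554 lower, against 2125 and 2223 with TMM.

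The genes of the box C/D proteins were all higher in flight muscle labelled Rbf-KD. Fib, the methyltransferase (FBgn0003062, arm 2R), had 22.5 and 27.7 CPM in flight muscle labelled Rbf-KD, against 0.890 and 1.39 CPM in WT. That is 10.2-fold higher on the TMM scale (95% interval 6.07 to 17.3; log2 3.36, SE 0.30, adjusted p = 0.00148 in edgeR). Both libraries labelled Rbf-KD stood above both WT libraries, as they did for every member. The share of all genes that did so was not counted.

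nop5 (FBgn0026196, arm 2L), a core scaffold of the same particle, had 46.7 and 54.7 CPM in flight muscle labelled Rbf-KD and 2.48 and 3.44 CPM in WT. It was 7.94-fold higher (interval 5.25 to 12.02; log2 2.99, SE 0.24, adjusted p = 0.00114 in edgeR). Its partner Nop56 (FBgn0038964, arm 3R) had 35.9 and 37.7 CPM in flight muscle labelled Rbf-KD and 1.45 and 2.96 CPM in WT. The WT libraries of Nop56 differed from each other by about as much as its lower value, and its interval was the widest of the set, 3.76- to 15.8-fold around a value of 7.71-fold (log2 2.95, SE 0.39, adjusted p = 0.00610 in edgeR).

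The fly dyskerin Nop60B (FBgn0259937, arm 2R) had 53.2 and 58.5 CPM in flight muscle labelled Rbf-KD and 2.29 and 3.87 CPM in WT. It was 8.39-fold higher (interval 4.84 to 14.6; log2 3.07, SE 0.31, adjusted p = 0.00232 in edgeR). Small nucleolar RNA genes lie within Nop60B on the same strand, and their reads cannot be told apart from those of the host in these counts.

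Nopp140 (FBgn0037137, arm 3L), a phosphoprotein that binds snoRNPs and escorts them within the nucleus, had 42.2 and 48.7 CPM in flight muscle labelled Rbf-KD and 4.03 and 5.35 CPM in WT. Its 4.49-fold difference was the smallest of the set (interval 3.10 to 6.505; log2 2.167, SE 0.21, adjusted p = 0.00163 in edgeR). Its annotated end shares 21 exon bases with P5CDh1 on the other strand, a gene with 19612 and 25407 counts in flight muscle labelled Rbf-KD and 19223 and 17760 counts in WT. Nopp140 itself had 2273 and 3572 counts in those labelled Rbf-KD and 231 and 289 counts in WT. Whether strand was used in counting was not given in the sources used here, and the part of P5CDh1 reads in the Nopp140 count was not tested.

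Nnp-1 (FBgn0022069, arm 2L) is the fly relative of yeast Rrp1, which acts in maturation of the large ribosomal subunit. It had 27.6 and 32.0 CPM in flight muscle labelled Rbf-KD and 2.27 and 2.09 CPM in WT, a 6.36-fold difference (interval 4.69 to 8.62; log2 2.67, SE 0.17, adjusted p = 8.29e-04 in edgeR). Polr1B (FBgn0003278, arm 2L), a catalytic subunit of RNA polymerase I, had 36.5 and 43.7 CPM in flight muscle labelled Rbf-KD and 1.62 and 1.74 CPM in WT. At 11.1-fold it showed the largest difference of the 7 (interval 7.95 to 15.5; log2 3.47, SE 0.19, adjusted p = 6.63e-04 in edgeR), and its WT libraries were nearly level. The intervals of the 7 genes overlapped one another, apart from that of Nopp140 against that of Polr1B.

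Markers of other cell types went different ways between the flight muscle genotypes. The 7 fat body markers were all called higher in flight muscle labelled Rbf-KD, with a median log2 fold change of 3.67, and summed to 4805 and 4210 CPM there against 206 and 171 CPM in WT. None of the 7 was at 0 in any flight muscle library. The 2 most abundant were apolpp and Fbp1, which code for a lipoprotein and for the receptor of storage proteins. Of the 5 hemocyte markers 1 was called higher with TMM, Hml, 2 were called higher by DESeq2 and all 5 with library totals, and they summed to between 721 and 726 CPM in flight muscle labelled Rbf-KD and between 186 and 187 CPM in WT. Of the 6 markers of disc epithelium none was called by edgeR or DESeq2 and none had an unadjusted p under 0.05 in edgeR, while 4 were called higher with library totals. Their sum was 63.6 to 85.3 CPM in flight muscle labelled Rbf-KD and 28.5 to 41.0 CPM in WT. Markers of adult muscle precursors summed to between 134.8 and 135.8 CPM in flight muscle labelled Rbf-KD and between 76.2 and 84.3 CPM in WT, where twi was at 0 in a library. Of the 5 of them that were tested, 2 were called higher and 2 lower with TMM (median log2 fold change -0.06), and 4 higher and none lower with library totals. Their most abundant genes, vg (log2 -0.74, adjusted p = 0.00586 in edgeR) and htl (-0.76, adjusted p = 0.00706), were lower with TMM and stood at 0.37 (adjusted p = 0.0400) and 0.35 (adjusted p = 0.0501) with library totals. Without replicate 1 or replicate 2 of flight muscle labelled Rbf-KD neither passed with TMM (adjusted p up to 0.0545 for vg and 0.0745 for htl). Of the 7 flight muscle markers 6 were called lower with TMM, and 5 lower and 1 higher with library totals, and their sum was 85636 and 79236 CPM in flight muscle labelled Rbf-KD against 144236 and 158179 CPM in WT. Of the smaller lists, 3 of 5 tracheal markers were called lower, 2 of 3 tendon cell markers higher, and none of the 4 neuronal and 2 glial markers was called by edgeR, although 1 neuronal marker had an unadjusted p under 0.05 in edgeR and DESeq2 called 1 neuronal marker. With library totals 1 tracheal marker was called lower, and all tendon, neuronal and glial markers higher. On that scale 68.2% of the 10930 genes tested were called higher and 5.07% lower, so calls higher in a marker list are common there. The part of these cell types in the difference of the nucleolar genes was not tested. In notum no fat body marker was called, and the fat body sum ran from 140 to 806 CPM between WT libraries. In RNA from whole tissue, fewer cells of a type and less RNA per cell cannot be told apart.

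**Figure D2:**
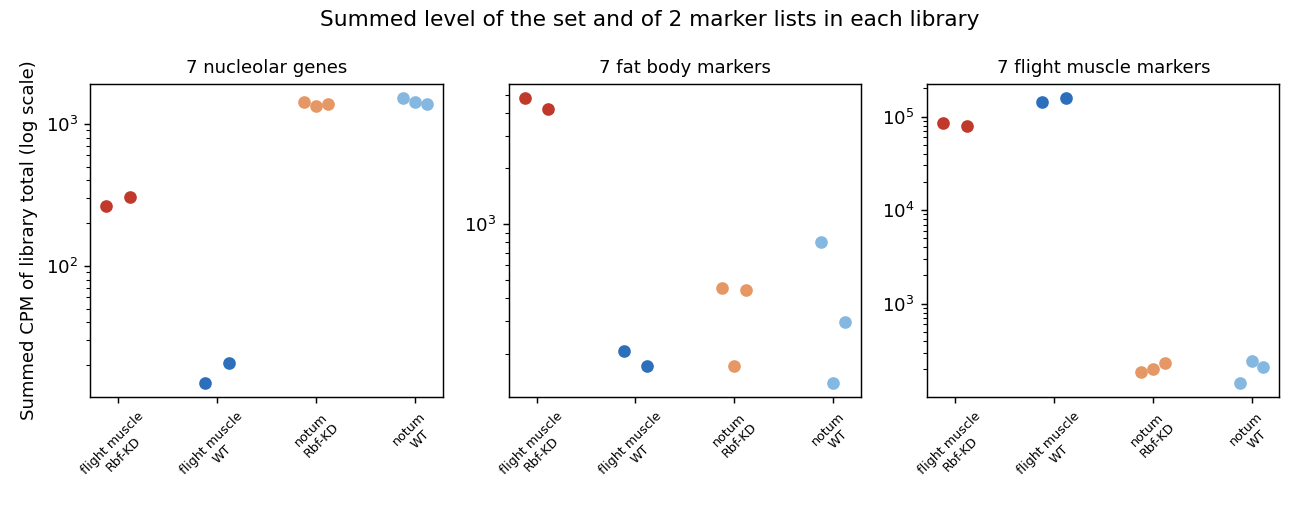
Summed CPM of the library total (log axes) of the 7 nucleolar genes, 7 fat body markers and 7 flight muscle markers, with a point for each library. In flight muscle labelled Rbf-KD the nucleolar and fat body sums are above WT and the flight muscle sum is below it, whereas in notum the genotypes overlap in all 3 panels.

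In notum the same comparison gave no call. None of the 7 genes was called by edgeR or by DESeq2, none had an unadjusted p under 0.05 in edgeR, and the lowest unadjusted p was 0.140. Over all 12203 genes tested 0.156% were called (0.0738% or 9 genes higher and 0.0819% or 10 genes lower), so a count of 0 of 7 is near the background. The median log2 fold change of the 7 was -0.08, against -0.01 over all genes.

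The values of the notum groups overlapped for 6 of the 7 genes as CPM of the library total and for all 7 on the TMM scale. Nopp140 was the exception, with 304, 302 and 310.0 CPM in notum labelled Rbf-KD and 337, 315 and 313.5 CPM in WT, a fold of 0.944 (95% interval 0.831 to 1.07). Fib had 95.1, 85.3 and 90.2 CPM in notum labelled Rbf-KD and 105, 101 and 90.5 CPM in WT, a fold of 0.906 with a 95% interval of 0.787 to 1.04. Nop56 had 227, 214 and 216 CPM in notum labelled Rbf-KD and 232, 210.0 and 198 CPM in WT, a fold of 1.02 (interval 0.888 to 1.17). These were the lowest and the highest fold of the set. Polr1B had 84.8, 82.8 and 89.8 CPM in notum labelled Rbf-KD and 85.8, 88.2 and 91.9 CPM in WT, a fold of 0.964 (interval 0.854 to 1.09). The remaining genes had folds between those of Fib and Nop56. The 7 intervals together ran from 0.787 to 1.19, so differences beyond that range lay outside the interval of every gene. These intervals hold for the whole notum piece, in which the driver is not active in the disc epithelium. A difference in the muscle precursors alone could be larger and was not measured. Between libraries of the same replicate number, Fib, nop5, Nop60B, Nopp140 and Polr1B were lower in notum labelled Rbf-KD in 3 of 3 pairs as CPM of the library total, and in 2 of 3 pairs on the TMM scale. Nop56 and Nnp-1 were lower in 1 of 3 pairs on either scale. With the replicate number as a block, none of the 7 had an unadjusted p under 0.05 in edgeR, and the lowest was 0.168, for Fib.

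The difference between the genotype effects was tested directly, as the effect in flight muscle minus that in notum. It was positive and called for all 7 genes, against 17.2% of the 13407 genes tested that were called in that direction, 13.1% in the other and 30.3% in either. The largest were those of Polr1B (log2 3.55, SE 0.19, adjusted p = 4.96e-06 in edgeR) and Fib (3.53, SE 0.26, adjusted p = 2.71e-05), and the smallest that of Nopp140 (2.28, SE 0.20, adjusted p = 6.47e-05). The remaining 4 lay between 2.73 and 3.20. The notum part of this difference is that of the whole piece, disc epithelium included.

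**Figure D3:**
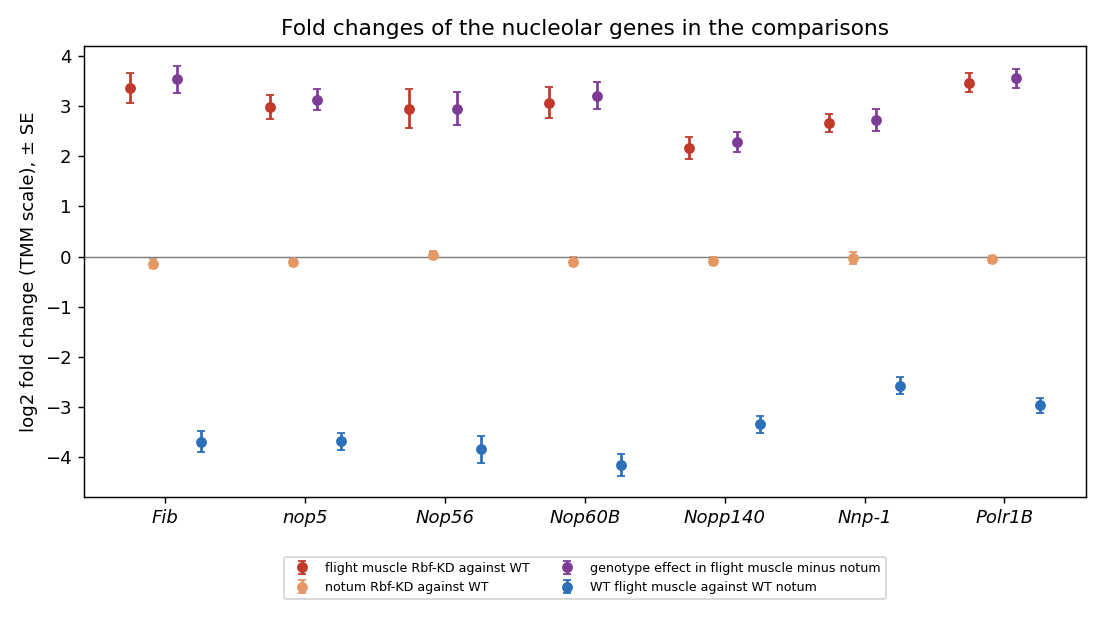
log2 fold change with its standard error for each of the 7 genes in the 4 comparisons, on the TMM scale. Flight muscle labelled Rbf-KD against WT runs from 2.167 to 3.47, notum labelled Rbf-KD against WT lies around 0, the genotype effect in flight muscle minus notum runs from 2.28 to 3.55, and WT flight muscle against WT notum runs from -4.16 to -2.57.

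WT flight muscle was also set against WT notum, which compares the control at the later and the earlier stage, in tissues that also differ in their cells. All 7 genes were lower in WT flight muscle, by 5.95- to 17.9-fold on the TMM scale. Over all 13407 genes 76.8% were called, 43.4% lower and 33.3% higher. The median log2 fold change of the 7 was -3.69, against -0.50 over all genes. Scaled to the library totals, the 7 lay between -6.91 and -5.32, the median over all genes was -3.24, a shift of -2.74, and 10235 genes were called lower and 1464 higher, against 5823 and 4468 with TMM.

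Nop60B had the largest tissue difference, with 2.29 and 3.87 CPM in WT flight muscle against 399, 359 and 353 CPM in WT notum (log2 -4.16, SE 0.22, adjusted p = 2.58e-07 in edgeR). The genes of the box C/D proteins followed closely, with -3.85 for Nop56 (SE 0.27), -3.69 for Fib (SE 0.21) and -3.69 for nop5 (SE 0.17). Nopp140 stood at -3.35 (SE 0.16) and Polr1B at -2.97 (SE 0.15). Nnp-1 had the smallest difference, with 2.27 and 2.09 CPM in WT flight muscle against 82.3, 99.2 and 79.9 CPM in WT notum (log2 -2.57, SE 0.17, adjusted p = 9.23e-07 in edgeR). The adjusted p of the 7 genes was at most 1.49e-06. No value of a WT flight muscle library overlapped a notum value for any of them, but the share of all genes without overlap was not counted.

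The comparisons in flight muscle and between tissues share the WT flight muscle libraries, so a low WT value moves both. On the scale of library totals, each gene's mean in flight muscle labelled Rbf-KD can be set against its mean in WT notum without that shared group. Polr1B stood at 45.3% of its WT notum level, Nnp-1 at 34.2% and Fib at 25.4%. nop5 stood at 19.7%, Nop56 at 17.2%, Nop60B at 15.1% and Nopp140 at 14.1%. On this scale the genes of the snoRNP proteins and Nopp140 therefore lay further below the notum level than Polr1B did. In WT flight muscle the corresponding values ran from 0.830% for Nop60B to 2.50% for Nnp-1. These percentages depend on the scale. With TMM, Polr1B had a genotype effect in flight muscle of 3.47 and a difference between the WT tissues of -2.97 (log2). Nnp-1 had 2.67 and -2.57, so neither gene need lie below notum on that scale. For the remaining genes the tissue difference was the larger. The genotype effects come from the fit of the flight muscle libraries alone and the tissue differences from the fit of all libraries. Flight muscle labelled Rbf-KD was not tested against WT notum.

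Ratios between the genes within a library do not depend on how libraries are scaled. The levels were compared per kilobase of the transcript used for counting, and each gene's level was taken as a share of the sum over the 7. Polr1B made up 9.16% and 9.56% of that sum in flight muscle labelled Rbf-KD and 5.64% to 7.55% in WT flight muscle. In notum it made up 3.98% to 4.37% in libraries labelled Rbf-KD and 3.76% to 4.51% in WT. Flight muscle labelled Rbf-KD thus held the highest share of Polr1B of any group, with no overlap. Fib, too, had its highest shares there, 15.3% and 16.4%, against 11.2% and 12.2% in WT flight muscle, 11.7% to 12.1% in notum labelled Rbf-KD and 12.02% to 12.9% in WT notum.

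Nopp140 ran the other way. It made up 11.7% of the sum in both libraries of flight muscle labelled Rbf-KD, against 19.1% and 20.7% in WT flight muscle. Its notum shares lay between, at 15.7% to 16.9% in libraries labelled Rbf-KD and 16.3% to 16.97% in WT. The limit on Nopp140 given above, its overlap with P5CDh1, holds for its WT flight muscle share too. nop5 kept nearly the same share in each group, between 21.95% and 24.0%. With 2 libraries against 2, the smallest two-sided p that an exact permutation test allows is 0.333, so these shares were given without a test.

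**Figure D4:**
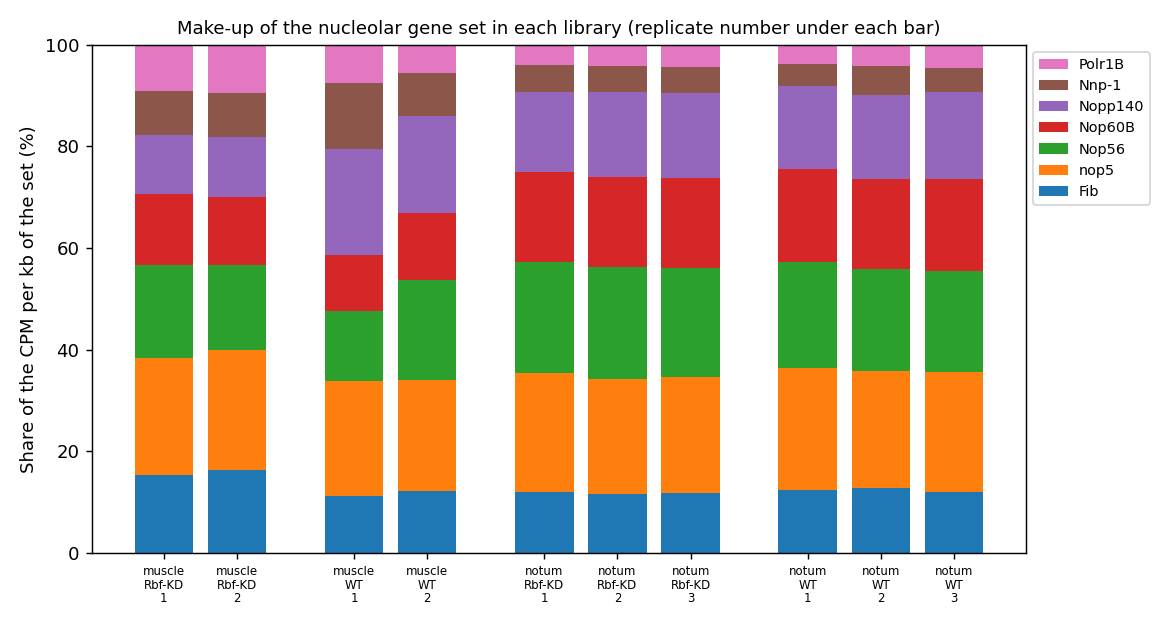
Share of each gene in the summed CPM per kilobase of the 7 genes (percent), with a bar for each library. Polr1B takes 9.16% to 9.56% in flight muscle labelled Rbf-KD, more than in any other library, and Nopp140 takes 11.7% there, less than in any other library.

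The order of the 7 genes by level per kilobase was headed by nop5 in all 4 groups, with 27.97 ± 3.14 CPM per kilobase in flight muscle labelled Rbf-KD and 1.63 ± 0.375 in WT flight muscle (SD, n = 2 each). In notum it had 132 ± 7.36 in libraries labelled Rbf-KD and 142 ± 10.5 in WT (SD, n = 3 each). Polr1B came last in notum of both genotypes, with 24.1 ± 1.01 in libraries labelled Rbf-KD and 24.9 ± 0.866 in WT, and in WT flight muscle, with 0.472 ± 0.023. In flight muscle labelled Rbf-KD it stood at 11.3 ± 1.44 and overlapped Nnp-1, which came last with 10.3 ± 1.09.

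In WT notum the order was nop5, Nop56, Nop60B, Nopp140, Fib, Nnp-1 and Polr1B. Neighbours overlapped between Nop56 and Nop60B and between Nop60B and Nopp140, and the rest stood apart. In notum labelled Rbf-KD the order was the same and the overlapping neighbours were nop5 and Nop56. In flight muscle labelled Rbf-KD it was nop5, Nop56, Fib, Nop60B, Nopp140, Polr1B and Nnp-1, with overlap between Nop56 and Fib, between Fib and Nop60B and between Polr1B and Nnp-1. In WT flight muscle it was nop5, Nopp140, Nop56, Nop60B, Fib, Nnp-1 and Polr1B, and each neighbour overlapped the next except that Polr1B stood below Nnp-1. The place of Nop60B depends on the transcript: on its longest one, of 3412 bases, it had 109 ± 7.33 CPM per kilobase in WT notum, and on one of 1753 bases, which held 90.71% of those counts, it had 193 ± 14.1, above nop5 (SD, n = 3).

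The rest of the pathway was described with a list of 49 other ribosome biogenesis genes. In flight muscle 46 of the 49 were called higher in libraries labelled Rbf-KD and none lower. Over all genes tested there, 19.4% were called higher and 20.3% lower. Their median log2 fold change was 1.78, against 0.10 over all genes and 2.99 over the 7. TAF1B (1.47, adjusted p = 0.0712 in edgeR), Rrp40 (0.46, adjusted p = 0.144) and Ski6 (0.52, adjusted p = 0.323) did not pass; they were named for being the exceptions.

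By role, all 5 further genes of snoRNP proteins were called higher, with a median of 3.06. Among them were NHP2 (3.06, SE 0.26) and Gar1 (3.53, SE 0.37), partners of Nop60B in the H/ACA particle. All 6 genes of the small subunit processome rose (median 2.44), among them wcd (3.32, SE 0.20) and U3-55K (3.34, SE 0.30), a protein of the U3 snoRNP. All 14 genes of large subunit assembly rose (median 1.88), including the DEAD-box helicase pit (2.89, SE 0.23) and CG5033, the fly Bop1 (3.13, SE 0.26).

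Of the 9 other genes of RNA polymerase I and its factors, 8 rose (median 1.63). The polymerase subunit Polr1F stood at 1.97 (SE 0.23) and the initiation factor Tif-IA at 1.08 (SE 0.18), both below the 3.47 of Polr1B. Without WT flight muscle replicate 1 Tif-IA no longer passed (adjusted p = 0.0678 in edgeR). The genes of the 5 other nucleolar proteins were called higher (median 1.57), among them mod (1.87, SE 0.17), which codes for a nucleolin-like protein. Another was vito (0.67, SE 0.20, adjusted p = 0.0449 in edgeR), which did not pass once any 1 of the 4 flight muscle libraries was left out. Of 10 genes of subunits and cofactors of the nuclear exosome, the RNA-degrading complex that trims rRNA ends, 8 were called higher (median 1.39). Among them were those of the helicase Mtr4 (1.27, SE 0.16) and the cap subunit Csl4 (2.57, SE 0.25).

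In notum none of the 49 was called by edgeR, against 0.156% of all genes tested, and 3 had an unadjusted p under 0.05. DESeq2 called 1, the exosome nuclease Dis3 (log2 0.27 in DESeq2, adjusted p = 0.0271), which overlaps CG6432. The median over the 49 was -0.06.

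Between WT flight muscle and WT notum 44 of the 49 were called lower and 1 higher, with a median of -2.01. Over all genes tested, 43.4% were called lower and 33.3% higher. The exception was TAF1B (1.46, SE 0.32, adjusted p = 0.00295 in edgeR), which overlaps another gene, CG42759, and scaled to the library totals turned to -1.28. Gar1 (-4.05, SE 0.29) and NHP2 (-2.95, SE 0.19) fell with Nop60B, and U3-55K (-4.25, SE 0.16), wcd (-3.40, SE 0.11), pit (-3.29, SE 0.16) and CG6724 (-2.84, SE 0.12) fell as well. Smaller decreases were those of Polr1E (-2.07, SE 0.20), Polr1F (-1.59, SE 0.13), mod (-1.57, SE 0.15), Mtr4 (-2.01, SE 0.097) and the exosome subunit Rrp4 (-2.55, SE 0.12).

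**Figure D5:**
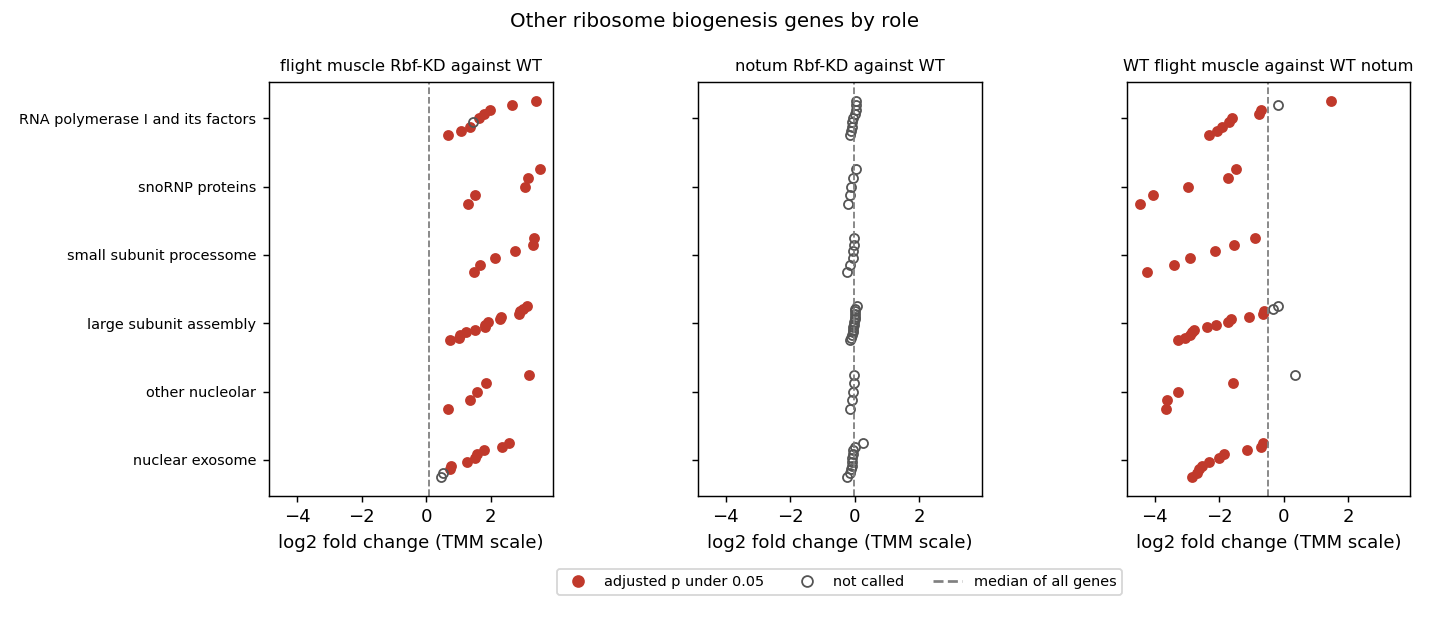
log2 fold change (TMM scale) of the 49 other ribosome biogenesis genes by role, with a point for each gene, filled where the adjusted p was under 0.05, and a dashed line at the median of all genes. In flight muscle labelled Rbf-KD 46 genes are called above WT, in notum none is called, and in WT flight muscle 44 are called below WT notum.

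Myc itself and the proteins it pairs or competes with were followed in the same comparisons. Myc had 3860 and 5622 counts in flight muscle labelled Rbf-KD and 455 and 415 counts in WT, and was higher (log2 2.14, SE 0.13, adjusted p = 7.73e-04 in edgeR). It was lower in WT flight muscle than in WT notum (-3.15, SE 0.22, adjusted p = 1.51e-06), as the 7 genes were, and in notum it was not called (0.14, SE 0.17, adjusted p = 1.00). Myc overlaps CG12535 and a noncoding RNA gene, so its counts may hold their reads. Max, its binding partner, was not called in flight muscle (-0.30, SE 0.16, adjusted p = 0.194), but was called higher when scaled to library totals (0.81, adjusted p = 0.0102). Mnt, the Max partner that represses Myc targets, was lower in flight muscle labelled Rbf-KD on the TMM scale (-1.01, SE 0.12, adjusted p = 0.00288), a direction that turned to 0.10 (adjusted p = 0.417) when scaled to library totals. Against WT notum, Mnt was higher in WT flight muscle with TMM (1.68, adjusted p = 1.22e-04 in edgeR) and lower with library totals (-1.06, adjusted p = 4.33e-04). Whether Myc, Max or Mnt had a part in the differences of the 7 genes was not tested.

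The genes whose pattern over the 10 libraries was nearest to that of the 7 were sought by root mean square difference. It was taken between log2 CPM centred per gene and the mean of the 7. The search covered 5580 protein-coding genes of at least 5 CPM on average, without those named only by CG and digits. The 6 nearest named ones were Mybbp1A (0.0719), Mcm6 (0.0942), Dbp73D (0.101), pit (0.107), RfC4 (0.119) and ppk8 (0.142). Mybbp1A and pit are nucleolar genes of the list above, Dbp73D is a DEAD-box helicase, Mcm6 and RfC4 belong to the DNA replication machinery, and ppk8 is named as an ion channel gene. Mybbp1A overlaps Dredd, and ppk8 overlaps CG2875 and DIP-alpha. Of the 50 nearest of these genes outside the set, 8 were on the list of 49 other ribosome biogenesis genes. Genes of that list named by CG and digits could not appear, and its share among the 5580 was not counted. Within the set, nop5 (0.0998) and Fib (0.119) lay nearest to the mean, and Nnp-1 (0.403) and Polr1B (0.414) furthest.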

How the data were processed

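The deposited table holds raw counts of reads for 29173 transcripts, not normalized, in 10 libraries. Per the labels' protocols, DNase-treated total RNA was depleted of ribosomal RNA (Ribo-Zero) and made into TruSeq Stranded libraries. The submitters' processing notes name build BDGP5, the aligners TopHat2 2.1.1 with Bowtie2 2.3.2, featureCounts of Subread for counting, DESeq2 1.14.1, and FastQC and bcl2fastq 2.17.1.14. Their annotation version, strand setting and treatment of shared reads are not given in the sources used here. Transcripts were matched by identifier to the BDGP6 annotation (27011, or 92.6%, in 15259 genes); unmatched transcripts held 9.86% to 20.34% of a library's counts and were left out. A gene's count is that of its transcript of highest total, and lengths are annotated exon lengths of that transcript.

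Counts were tested in R 4.3.3 with edgeR 4.0.16 (filterByExpr with a minimum count of 10 and a minimum total of 15, TMM, robust quasi-likelihood F test, Benjamini-Hochberg over all genes tested, adjusted p under 0.05). Genotypes were compared within each tissue on its own libraries; WT flight muscle against WT notum and the difference of the genotype effects came from 1 fit over all 10 libraries and 4 groups. A standard error is the size of the log2 fold change divided by the square root of F, and a 95% interval uses the fit's degrees of freedom. Alternatives were library-total and RLE scaling, no filter, DESeq2 1.42.0, limma 3.58.1 (voom), counts summed over transcripts, a replicate block and leaving out libraries. Same-numbered notum libraries deviated together (correlations 0.673, 0.602 and 0.242, from the data, as no label ties the numbers), and each value above 0.1 was taken as pairing, although Rbf-KD replicate 3 correlated more with WT replicate 2 (0.579) than with its own number; those of flight muscle did not (-0.221).

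The members, gene lists and markers were chosen with earlier results of these data known. Named beside the 7 genes are Rbf, Myc, Max and Mnt; for each role and comparison up to 2 called genes of the other list, of smallest adjusted p with no overlapping gene; the 2 most abundant genes of a marker list where its sum is discussed; and the 6 genes nearest in pattern (log2 of CPM plus 0.5).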

Additional observations from a re-analysis of the deposited data

Results flagged for a closer look

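The genotype effect differed between flight muscle and notum, by the test of the difference itself in edgeR's fit of all 10 libraries, for every one of the 7 nucleolar genes. The difference (log2, effect in flight muscle minus effect in notum) was 3.53 for Fib, 3.13 for nop5, 2.95 for Nop56, 3.20 for Nop60B, 2.28 for Nopp140, 2.73 for Nnp-1 and 3.55 for Polr1B.

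Of the 49 other genes of ribosome biogenesis, 48 were called higher in this difference, against 17.2% of all genes tested. The 15 named here had been picked for being called in one of the comparisons, so their calls are no further result. Those of the snoRNPs and the small subunit processome had 3.77 for Gar1, 3.14 for NHP2, 3.54 for U3-55K and 3.36 for wcd. Those of large subunit assembly had 3.31 for CG5033, 3.05 for pit and 1.98 for CG6724. RNA polymerase I and its factors had 2.098 for Polr1F, 1.64 for Polr1E and 1.07 for Tif-IA. Other nucleolar and exosome genes had 1.92 for mod, 0.85 for vito, 2.85 for Csl4, 1.59 for Rrp4 and 1.39 for Mtr4. The call of vito was lost when any 1 of the 3 notum libraries labelled Rbf-KD was left out (adjusted p up to 0.0701).

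Rbf counts differed by 1.76, against the label and with the limit on hairpin reads given above, and Myc by 2.03. Mnt differed by -1.25 with TMM (adjusted p = 0.0178) and by -0.18 with library totals (adjusted p = 0.589), and its call was lost without flight muscle replicate 1 of either genotype (adjusted p up to 0.0736).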

How the results depend on the processing

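The number of the 7 genes called was the same under every alternative run: 7 higher in flight muscle labelled Rbf-KD, 7 lower in WT flight muscle against WT notum, 7 for the difference between tissues and 0 in notum. Over the alternatives the log2 fold changes ran from 1.94 to 4.58 in flight muscle (adjusted p up to 0.0367), from -6.91 to -2.42 between the tissues and from 2.11 to 4.62 for their difference. None of the notum values was called, and a few crossed 0. Leaving out 1 library at a time, Nop56 ran from -0.040 to 0.11, with the sign turned without WT notum replicate 3. Nnp-1 ran from -0.11 to 0.15 and was above 0 without replicate 2 of either genotype, and was 0.0030 with all 10 libraries fitted together. Polr1B ran from -0.10 to 0.022 and was above 0 without Rbf-KD replicate 1 and without WT replicate 2. The cause was not tested. Of the 49 other genes DESeq2 called 1 in notum, where edgeR called 0. In flight muscle edgeR called 38 to 43 of them with a library left out and 44 to 49 otherwise.

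With the replicate number as a block, the notum counts stayed at 0 of the 7 and 0 of the 49, and 79 genes in all were called in place of 19 (130 by DESeq2); no other call on the 7 changed. In flight muscle, where the numbers do not pair the libraries, the block called 7 and 46, and crossed pairing, added after the data were seen, called 7 and 44. Leaving out flight muscle libraries lowered the calls over all genes to 1111 to 1303 higher and 1285 to 1742 lower. Depth limits WT flight muscle most, where a gene of the set rests on as few as 51 counts.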
